A study of Homo sapiens with 2 samples.

Results

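Desmosomes and adherens junctions are the adhesive contacts that hold epithelial cells together. The rule named 10 genes of these contacts, 6 of the desmosome (DSG2, DSC2, DSP, JUP, PKP2 and PKP3) and 4 of the adherens junction (CDH1, CTNNA1, CTNNB1 and CTNND1). A gene was taken where the platform's annotation gives its symbol to a transcript cluster, the group of probes by which the array reads a gene. Of the 10 genes, 9 were read, by 1 cluster each, among 14526 named genes in all. CTNND1, which encodes p120-catenin, a protein that keeps cadherins at the cell surface, had no cluster under its own symbol and is not analysed here. The genes were chosen by their role and selected on the same difference between the arrays, DSG2 because it was far lower in the ANO5 siRNA array than the others, so the differences below are a description with no test.

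The cells were NUGC4, a human gastric cancer line. The groups were a culture given a negative control siRNA and a culture in which ANO5 (anoctamin 5) was targeted by siRNA. The siRNA concentration was 20 nmol/l in both, and transfection with the same lipid reagent followed seeding by 24 h. Each group is 1 array of total RNA, and a single siRNA against ANO5 was used, so no spread between replicates can be had and an effect of the siRNA sequence itself cannot be told apart from that of ANO5. The labels do not give the time of harvest. ANO5 itself had a log2 signal of 6.83 in the control array and 3.67 in the ANO5 siRNA array.

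In a desmosome, the cadherins of the desmoglein and desmocollin families reach across the gap between cells. Their tails bind plakoglobin (JUP) and the plakophilins, and desmoplakin (DSP) ties this plaque to the keratin filaments. In an adherens junction, E-cadherin (CDH1) binds β-catenin (CTNNB1) or plakoglobin, and α-catenin (CTNNA1) links the complex to actin. β-catenin is also the nuclear partner of TCF factors in WNT signalling. E-cadherin and α-catenin are known for their loss in diffuse gastric cancer.

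DSG2 and DSC2 lie in 1 cluster of desmosomal cadherin genes on chromosome 18, with other desmogleins and a desmocollin between them, and CTNNB1 was the other junction gene with a clearly lower value. The 250 bases before their annotated starts are shown because the 3 genes gave such unlike differences, together with DSP, the member with the largest positive difference. They are RefSeq sequences of GRCh38.p14, written 5′ to 3′ on each gene's strand. Capitals mark CACCTG or its reverse complement CAGGTG, the E-box that SNAI and ZEB repressors bind. They also mark GGGCGG or its reverse complement CCGCCC, the GC box.
DSG2, chr18:31497927-31498176, plus strand: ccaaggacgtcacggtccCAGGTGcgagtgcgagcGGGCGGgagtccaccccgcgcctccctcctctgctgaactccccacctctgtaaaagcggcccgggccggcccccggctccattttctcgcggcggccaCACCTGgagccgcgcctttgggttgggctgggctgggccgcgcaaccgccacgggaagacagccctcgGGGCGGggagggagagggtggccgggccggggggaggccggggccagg
DSC2, the outer of 2 starts, chr18:31102422-31102671, minus strand: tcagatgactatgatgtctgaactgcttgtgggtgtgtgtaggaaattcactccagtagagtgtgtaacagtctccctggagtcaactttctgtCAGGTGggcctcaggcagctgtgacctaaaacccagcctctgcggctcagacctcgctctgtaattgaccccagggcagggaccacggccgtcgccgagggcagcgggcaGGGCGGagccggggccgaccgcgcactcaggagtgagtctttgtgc
CTNNB1, chr3:41199255-41199504, plus strand: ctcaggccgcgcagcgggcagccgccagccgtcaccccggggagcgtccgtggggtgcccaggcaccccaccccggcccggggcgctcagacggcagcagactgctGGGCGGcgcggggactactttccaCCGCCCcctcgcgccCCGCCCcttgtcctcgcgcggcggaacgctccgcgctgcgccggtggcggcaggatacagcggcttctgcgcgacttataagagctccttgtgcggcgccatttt
DSP, chr6:7541421-7541670, plus strand: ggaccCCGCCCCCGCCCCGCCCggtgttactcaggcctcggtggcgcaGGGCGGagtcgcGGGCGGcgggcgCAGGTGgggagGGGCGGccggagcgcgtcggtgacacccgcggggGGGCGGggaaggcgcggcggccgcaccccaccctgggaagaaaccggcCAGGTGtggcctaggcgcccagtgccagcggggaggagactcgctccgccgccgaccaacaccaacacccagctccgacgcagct

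DSG2 held 2 E-boxes, 232 and 116 bases before the start, and 2 GC boxes, at 215 and 48 bases. DSP, with a difference of the opposite sign, also held 2 E-boxes, at 178 and 85 bases, beside 7 GC boxes, some of which share letters with each other. DSC2 had 1 E-box at the outer start and 0 at the inner one, and CTNNB1 had 0 E-boxes and 3 GC boxes. Of 34788 distinct windows of this length in the RefSeq table, 17.5% held the E-box and 42.6% the GC box. The share of G and C was 75.2% for DSG2, 59.6% for the DSC2 window shown, 74.4% for CTNNB1 and 78.0% for DSP. TATAAA, the E2F site TTTCCCGC and the CHR element TTTGAA, each searched on both strands, were not found in any of the 4 windows, which says only that these letters are not there. Among all windows they occurred in 10.8%, 1.39% and 13.3%. Windows were found for 6 of the 10 genes. Of those not shown, the inner DSC2 start had 2 GC boxes, the 2 JUP windows had 0 and 2 E-boxes and 2 and 0 GC boxes, and the 4 CTNNA1 windows had 0 E-boxes and 9, 4, 0 and 0 GC boxes. The counts are a description of the letters, and their part in the differences was not tested.

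DSG2, the desmoglein of simple epithelia, had a log2 signal of 12.37 in the control array and 8.52 in the ANO5 siRNA array. This is a difference of -3.85, or 14.4-fold lower. Of 9735 named genes in the measured range (the mean of both arrays is 6.05 or more, which leaves out the lowest 33% of genes), 12 were as low or lower, DSG2 included. Among the 2432 genes of similar mean level (9.65 to 11.44), 5 were, again with DSG2 itself. Less of a transcript in each cell and fewer cells that hold it cannot be told apart in such bulk RNA. The value left in the ANO5 siRNA array was above that array's median of 7.68, so the fold does not rest on a signal at the bottom of the scale.

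DSC2, the desmocollin that pairs with DSG2 in simple epithelia, did not share this difference. It had a signal of 12.28 on the control and 12.55 on the ANO5 siRNA array, a log2 difference of 0.27. The ratio of DSG2 to DSC2 was thus 17.4-fold lower in the ANO5 siRNA array. A constant shift between the arrays cancels in this ratio, because both genes were read on the same 2 arrays. A shift that depends on signal level does not cancel, and the ratio too rests on 1 array a group.

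Of the 4 plaque genes of the desmosome, 1 (DSP) was higher by 1.5-fold or more and 0 lower. These are too few genes to set against the 23.2% and 20.1% of all measured genes. DSP, the plakin that anchors keratins, had 13.78 in the control and 14.91 in the ANO5 siRNA array, a difference of 1.13 or 2.19-fold higher. JUP, shared by both kinds of junction, had 13.79 and 14.21, a difference of 0.42. PKP2, a plakophilin of simple epithelia, had 14.80 and 14.89, a difference of 0.09. These 3 genes had a higher value on the ANO5 siRNA array, with JUP and PKP2 inside 1.5-fold. PKP3, a plakophilin that binds many desmosomal proteins, had the lowest signals of the members, 6.63 and 6.47, close to the lower bound of the measured range, and a difference of -0.16. Its low signal limits what can be read from this value.

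**Figure D1:**
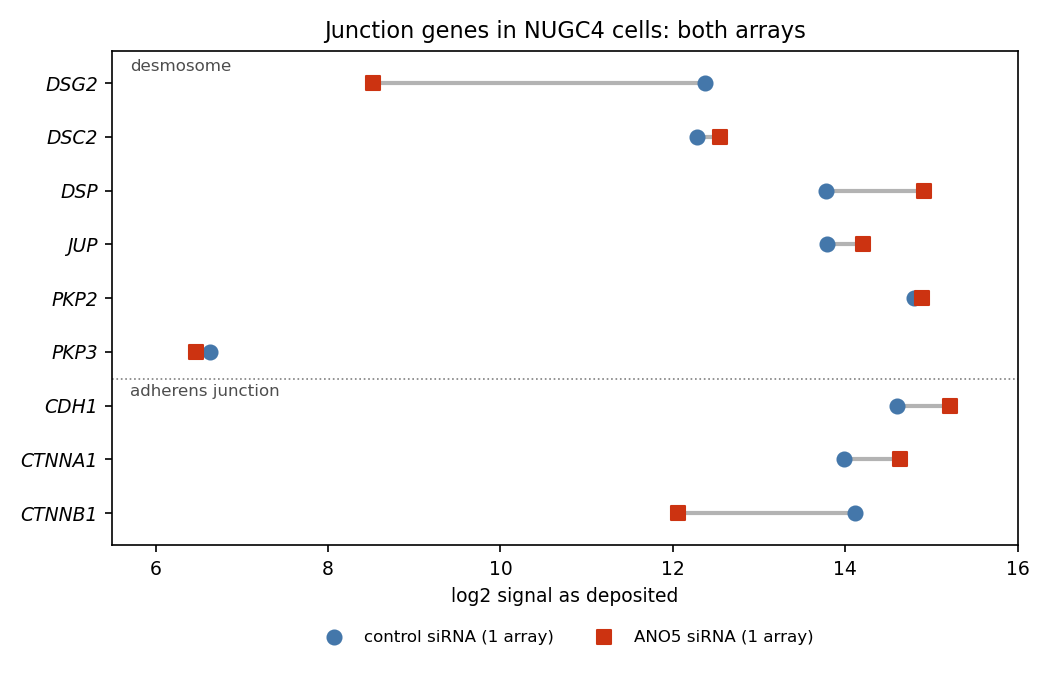
Log2 signal as deposited (horizontal axis) of the 9 junction genes on the control siRNA array (blue circles) and the ANO5 siRNA array (red squares), 1 array each, with a grey line joining the values of a gene. DSG2 goes from 12.37 to 8.52 and CTNNB1 from 14.11 to 12.06, whereas the other 7 genes lie between 0.16 lower and 1.13 higher.

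In the adherens junction, CDH1, the classical cadherin of epithelia, had 14.60 in the control and 15.21 in the ANO5 siRNA array. Its difference was 0.61, or 1.53-fold higher. CTNNA1, the link to actin, had 13.98 and 14.64, a difference of 0.66 or 1.58-fold higher. Both lie next to the 1.5-fold line (0.585 on the log2 scale), and after loess on the mean level they fell short of it, at 0.54 and 0.58.

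CTNNB1 went the other way. It had 14.11 in the control and 12.06 in the ANO5 siRNA array, a difference of -2.05 or 4.14-fold lower. Among the 2436 genes with a mean level of 11.44 or more, 68 were as low or lower, CTNNB1 included. JUP, its armadillo relative that can take its place on the tail of E-cadherin, was 1.34-fold higher, so the ratio of CTNNB1 to JUP was 5.54-fold lower. The ratio of CTNNB1 to its partner CTNNA1 was 6.54-fold lower and that to CDH1 6.32-fold lower. The catenins thus had unequal differences on these arrays. β-catenin was 4.14-fold lower, α-catenin 1.58-fold higher and plakoglobin 1.34-fold higher, the last inside 1.5-fold.

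Counted together, 3 of the 9 genes were higher by 1.5-fold or more (DSP, CDH1 and CTNNA1) and 2 lower (DSG2 and CTNNB1), beside 23.2% and 20.1% of the measured genes. At 2-fold, 1 was higher (DSP) and 2 were lower, beside 11.2% and 11.3%. All 9 passed the filter on low values. The rule used this contrast, and nothing is read from these counts. The median difference of the 9 genes was 0.27, that of the 6 desmosomal genes 0.18 and that of the 3 adherens junction genes 0.61, beside 0.07 for all measured genes. The difference of DSG2 minus the median of the other 8 genes was -4.20 on the log2 scale, an 18.3-fold lower ratio. The gap between DSG2 and a single other member ran from -1.80 against CTNNB1 and -3.69 against PKP3 to -4.98 against DSP. Without DSG2 the 5 desmosomal genes spanned -0.16 to 1.13.

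**Figure D2:**
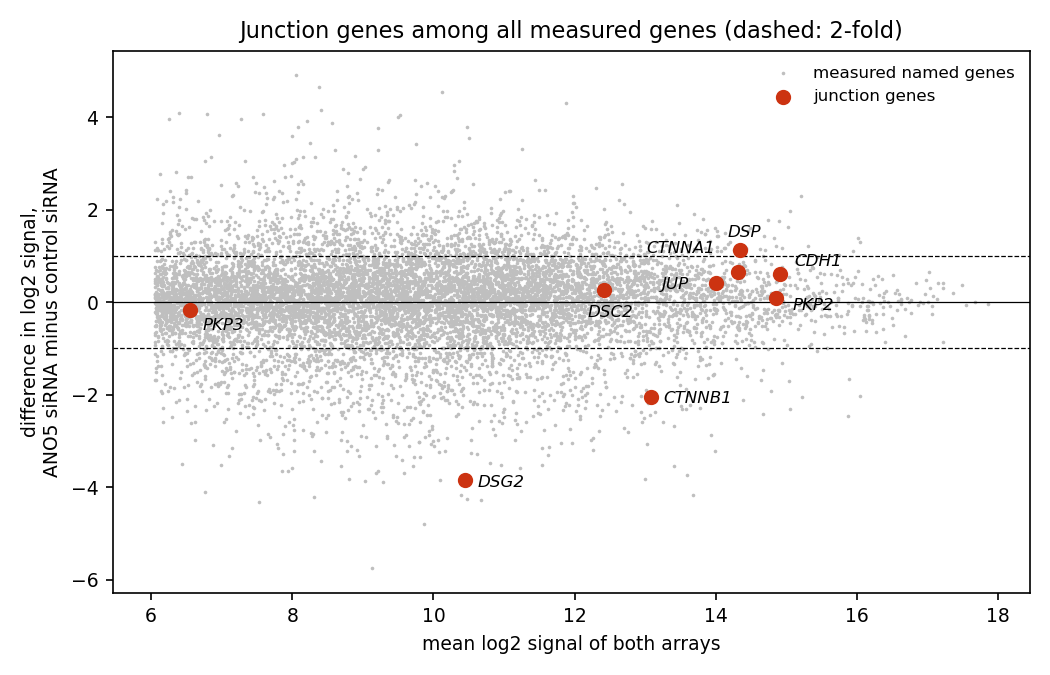
Difference in log2 signal, ANO5 siRNA minus control siRNA (vertical axis), against the mean log2 signal of both arrays (horizontal axis) for 9735 measured named genes (grey) and the 9 junction genes (red). Dashed lines mark 2-fold, and DSG2 at -3.85 and CTNNB1 at -2.05 lie below the lower line while DSP at 1.13 lies just above the upper one.

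DSG2 was set beside the genes around it, in the chromosomal order of the RefSeq table. The stretch from DSC3 to RNF125 holds 12 coding genes, of which 9 had a cluster and 5 were in the measured range. The other desmosomal cadherins of squamous epithelia gave low signals on both arrays. DSG3 had 3.98 and 3.55, DSG1 had 4.87 and 5.10, and DSC3 had 3.50 and 4.24, all below the measured range. Next to DSG2 on its other side, TTR, a thyroid hormone carrier of the liver, had 5.34 and 4.84, also below that range. B4GALT6, a galactosyltransferase, had 7.34 and 6.83, a difference of -0.51. Farther on, TRAPPC8, a part of a vesicle tethering complex, had 9.74 and 10.57 and was 1.78-fold higher. SLC25A52, a mitochondrial carrier not on the list and added after its value was seen, had 5.68 and 6.43. Its mean reached the lower bound of 6.05 only through the ANO5 siRNA value. None of the measured neighbours in this stretch was lower by 1.5-fold or more, beside 20.1% of all measured genes. They are too few to set against that share, and DSG3 and TTR, on either side of DSG2, were below the measured range.

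**Figure D3:**
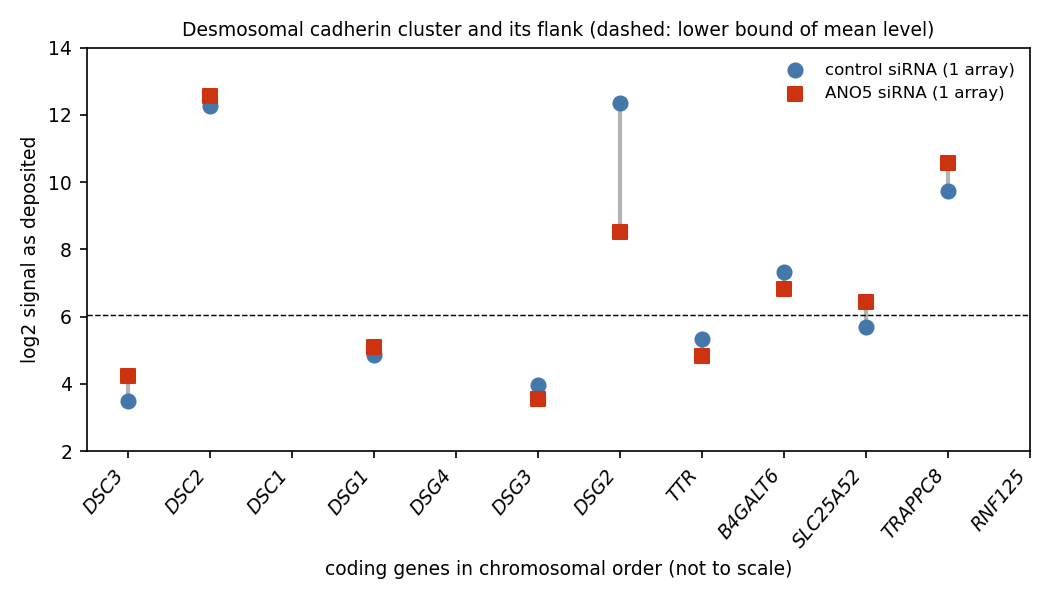
Log2 signal as deposited (vertical axis) of the coding genes from DSC3 to RNF125 in chromosomal order, not to scale, on the control siRNA array (blue circles) and the ANO5 siRNA array (red squares). The dashed line is the lower bound of the mean level, 6.05, genes with no point had no cluster, and the gap between points is widest for DSG2, 12.37 and 8.52.

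The 5 measured genes with values most like those of DSG2, by Euclidean distance over the 2 arrays, were GINS1 (distance 0.23), LMNB1 (0.29), LAMP1 (0.43), CKS1B (0.44) and H2BC10 (0.46). GINS1, a part of the replicative helicase, had 12.47 and 8.31, and LMNB1, a nuclear lamin, 12.61 and 8.35. LAMP1, a lysosomal membrane protein, had 12.17 and 8.90. CKS1B, a subunit of cyclin-dependent kinase complexes, had 12.81 and 8.54. H2BC10, a histone gene with near-identical copies that may share its signal, had 12.26 and 8.97. Likeness over 2 arrays is a weak measure. No other junction gene was among these, which follows from the choice of DSG2 by its difference from them.

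The rest of the desmosome was read from lists of related genes, whose counts past 1.5-fold stand beside 23.2% higher and 20.1% lower among all measured genes. Of 8 other desmosomal genes, 6 had a cluster and 2 were measured. PERP, a membrane protein of desmosomes, had 14.42 and 14.34, and PKP4 had 11.17 and 10.83, both within 1.5-fold. Of 5 plakins, 2 were higher by 1.5-fold and 0 lower, too few to set against those shares. PPL (periplakin) was 3.97-fold higher, from 7.07 to 9.06, and MACF1, which links actin and microtubules, 1.52-fold higher. Of the 4 simple keratins in the table, the filaments to which desmosomes attach, 2 were higher and 0 lower, again too few genes to set against 23.2% and 20.1%. KRT7 went from 11.64 to 13.76 and KRT19 from 15.24 to 16.26, while KRT8 (17.06 and 17.37) and KRT18 (15.97 and 15.78) lay within 1.5-fold.

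Of 22 other cadherins, 16 had a cluster and 3 were measured. CDH17, the cadherin of the intestinal lining, was 2.25-fold higher, from 11.34 to 12.51, and CDH3, P-cadherin, 1.52-fold lower, from 10.70 to 10.10. Of the other catenins and catenin-named genes, 3 of 6 in the table were measured. CTNNBIP1, an inhibitor that keeps β-catenin from TCF factors, was 2.45-fold higher, from 7.86 to 9.15, and CTNNAL1, a relative of α-catenin, 1.53-fold lower. Of the 5 nectin and afadin genes, NECTIN4 was 2.07-fold higher and AFDN, which links nectins to actin, 1.55-fold lower.

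On the actin side, 4 of 13 genes were higher and 2 lower by 1.5-fold, near the 23.2% and 20.1% of all measured genes. LIMA1 (EPLIN), which binds α-catenin and actin, was 2.93-fold higher, from 12.96 to 14.51, EZR, ezrin, 1.69-fold and ACTN4 1.56-fold higher. PDLIM5 was 2.27-fold and ENAH, an actin polymerisation factor, 1.96-fold lower. Among 20 genes of cadherin turnover, phosphatases, kinases and GTPases, 5 were higher and 7 lower, beside 23.2% and 20.1% of all measured genes. ADAM10, a protease that cleaves E-cadherin, was 3.39-fold higher, from 12.22 to 13.98, PLEKHA7, a p120-catenin partner, 2.62-fold and CDC42 2.19-fold higher. Among the other ADAM genes of this list, ADAM15 was 1.91-fold lower and ADAM17 lay within 1.5-fold. NUMB, an endocytic adaptor, was 4.17-fold lower, IQGAP1, a scaffold that binds β-catenin, 2.95-fold and RAC1 2.75-fold lower.

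The protein level of β-catenin is set by a destruction complex, which arrays of RNA do not read. Of 10 measured genes of this complex and its regulators, 5 were higher and 1 lower by 1.5-fold, beside 23.2% and 20.1% of all measured genes. Their median was 0.55, beside 0.07 for all measured genes. GSK3B and GSK3A, the kinases that mark β-catenin, were 3.05-fold and 1.96-fold higher, and the scaffold APC went from 9.56 to 10.72, 2.23-fold higher. ZNRF3, a ligase that removes WNT receptors, was 2.06-fold lower, from 8.29 to 7.25. RNF43, another ligase of this list, went the other way, from 9.20 to 9.82, 1.54-fold higher. AXIN2, a scaffold that is also a target of β-catenin, had 6.12 and 4.82. Its mean of 5.47 was below the bound of 6.05 only through the ANO5 siRNA value.

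**Figure D4:**
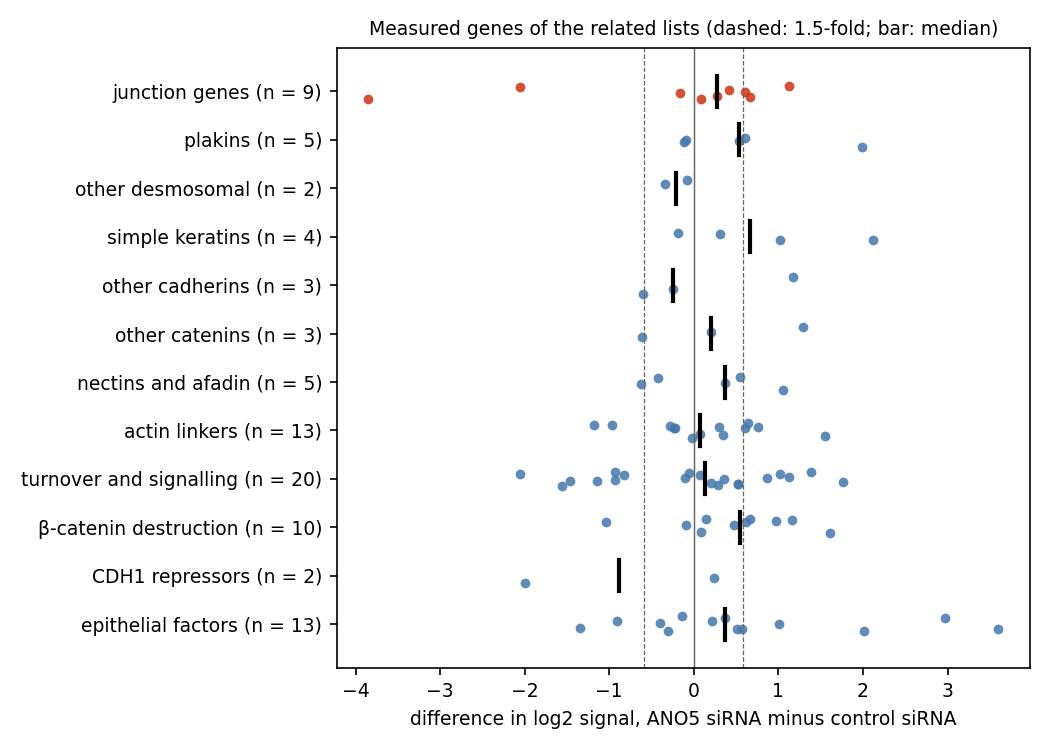
Difference in log2 signal, ANO5 siRNA minus control siRNA (horizontal axis), for the 9 junction genes (red) and the measured genes of 11 related lists (blue), 1 point a gene, with the median as a black bar and dashed lines at 1.5-fold. DSG2 lies at -3.85 and the lowest gene of the related lists, NUMB, at -2.06. DSG2 was chosen by this difference, and 0.123% of all measured genes were as low or lower. Nothing is read from the gap.

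Markers were checked for the labelled cell type. The 6 epithelial markers, EPCAM, KRT8, KRT18, KRT19, CLDN4 and CLDN7, were all in the measured range, from 13.26 to 17.06 in the control array and from 13.34 to 17.37 in the ANO5 siRNA array. Of the fibroblast markers, 1 of 3 in the table was measured, and their signals ran from 4.58 to 8.03 and from 4.19 to 7.92. Of the blood markers, 2 of 5 were measured, from 3.68 to 7.66 and from 3.49 to 7.34, with the leukocyte marker PTPRC below the measured range at 3.68 and 3.49. No marker list for another cell type was higher by its median in the ANO5 siRNA array. These medians rest on 1 measured fibroblast gene and 2 measured blood genes. They are too few to tell whether signal of other cell types differed between the arrays.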

How the data were processed

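Total RNA of 2 NUGC4 cultures was labelled with biotin and read on expression arrays, 1 array per group, per the labels. The authors deposited a table of 17345 transcript clusters with a value for either array. The values were read as log2 signal as deposited, because they run from 2.13 to 18.15. Agilent Feature Extraction 12.0.3.1 is named in the submitters' processing notes. How background was corrected and values normalized, the log base and the build are not given in the sources. The medians were 7.69 (control) and 7.68 (ANO5 siRNA), and values were used unscaled. No detection call was used. Precision is limited by the number of arrays.

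Symbols came from the platform annotation, matched by Entrez identifier: 14544 clusters had 1 symbol and 2801 none. For a gene with several clusters the one with the highest mean was kept. Differences are ANO5 siRNA minus control. The thresholds were 1.5-fold and 2-fold. Members, lists and thresholds were chosen with earlier results of these data known. Named genes were all members, up to 3 genes each way past 1.5-fold from each list, all genes of the DSG2 stretch and the 5 genes nearest to DSG2. PERP, PKP4, KRT8, KRT18, AXIN2, RNF43, ADAM15, ADAM17, FOXC2, SNAI1 and TWIST1 fall outside this rule and were named after their values were seen. Alternatives were 4 scalings, a pseudocount of 32, the median over clusters, a 2-fold threshold and 2 other filters. Promoter windows of opposite strands that overlap matched as reverse complements in 2841 of 2841 pairs. Counting and scaling were tested on simulated data. Python 3.11.15, numpy 2.4.6, pandas 2.3.3 and statsmodels 0.14.6 were used.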

Additional observations from a re-analysis of the deposited data

How the results depend on the processing

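With 1 array a group no replicate could be left out, and no paired analysis was possible because each group is 1 array. A value was said to move where it changed by 0.1 or more on the log2 scale. DSG2 differed by -3.97 after loess (span 0.4) and -3.74 with the pseudocount, and its distance from the median of the other members was -4.08 with the pseudocount. After loess the median of the 9 members was 0.14, and 1 member was higher by 1.5-fold, since CDH1 and CTNNA1 fell short of it. At 2-fold 1 member was higher. Under every alternative run on it, the count of lower members was 2. Of 48 values of the other members under alternatives, 48 kept their direction and 46 also their side of 1.5-fold. Part of this was fixed in advance. The median over clusters could not change a member, since each had 1 cluster. Centring shifted all members alike, by 0.01 (median) and -0.02 (75th percentile).

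Loess moved the list medians to -0.32 (other desmosomal genes), 0.39 (plakins), 0.067 (other catenins), -0.065 (actin linkers), -7.6e-05 (cadherin turnover) and 0.45 (destruction complex). It moved the median of all measured genes by -0.076. Without a filter the medians were -0.07 (other desmosomal genes), -0.01 (other catenins), 0.21 (epithelial factors), -0.19 (blood markers) and 0.07 (CDH1 repressors), the last of the opposite sign to -0.88, since 2 genes of that list were measured with the filter. With the filter at the 50th percentile they were 0.29 (other cadherins), 0.67 (destruction complex), -2.00 (CDH1 repressors), -0.14 (epithelial factors) and 0.27 (genes around DSG2), where fewer genes remained. Counting the cluster of the TMX2-CTNND1 readthrough gene as CTNND1, chosen after seeing the data, gave an adherens junction median of 0.04. The signal of PKP3 limits its value.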

Other observations

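The cluster annotated to TMX2-CTNND1, a readthrough gene that joins TMX2 to the p120-catenin gene CTNND1, had a log2 signal of 7.75 in the control array and 7.22 in the ANO5 siRNA array, a difference of -0.53. It was added after the values were seen and is not counted as CTNND1, because the annotation does not say how much of the signal comes from CTNND1 transcripts.

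Factors that act on epithelial and junction genes differed in both directions. Of 13 measured transcription and splicing factors of epithelia, 4 were higher by 1.5-fold and 2 lower, beside 23.2% and 20.1% of all measured genes. GRHL3, a grainyhead factor of the epidermal barrier, went from 6.20 to 9.80 and was 12.1-fold higher. ELF5, an ETS factor of glandular epithelia, went from 6.40 to 9.37, 7.84-fold higher, and GRHL1, which binds desmosomal cadherin genes in the epidermis, from 5.49 to 7.50, 4.03-fold higher. The control values of these 3 genes are low, so background may limit their folds. GRHL1 lay below 6.05 in the control array and passed the filter on the mean only through its ANO5 siRNA value. ESRP1, an epithelial splicing factor, went from 14.53 to 13.18, 2.55-fold lower, and FOXA2 from 8.80 to 7.89, 1.88-fold lower. Of 11 known repressors of CDH1, 6 had a cluster and 2 were measured. TCF3, an E-box factor, went from 10.89 to 8.89 and was 4-fold lower, and FOXC2 had 6.64 and 6.88. SNAI1 (4.71 and 3.98), TWIST1 (5.62 and 5.71) and the other two in the table lay below the measured range on both arrays.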
